A study of Homo sapiens with 18 samples.

Results

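The AP-1 and BATF transcription factors were followed as 10 genes across 18 arrays of lymphoma cell lines. The members are JUN, JUNB and JUND, then FOS, FOSB, FOSL1 and FOSL2, then BATF, BATF3 and ATF3. They were taken by gene symbol, and each was represented by its brightest probe set among those annotated to that symbol alone, which left 10 of the 18417 genes measured. Each of the 10 had only 1 such probe set.

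AP-1 is a family of dimeric transcription factors built on the basic leucine zipper, a helix that binds DNA with one end and a partner protein with the other. JUN proteins pair with each other or with FOS proteins, whereas FOS proteins need a JUN partner. FOS, FOSB, JUN and JUNB are immediate-early genes, which growth factor and stress signals switch on through MAP kinases without new protein synthesis. BATF and BATF3 lack the activation domains of FOS, pair with JUN proteins and bind composite sites together with IRF4 or IRF8. ATF3 is a stress-induced member of the same superfamily. Hodgkin lymphoma cells are known for abundant JUN and JUNB, and CD30 (TNFRSF8) is a reported target of JUNB in them.

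The study asked how far PAX5, a factor needed for B-lineage commitment, changes expression in a Hodgkin lymphoma line with or without drugs acting on chromatin. There were 6 groups of 3 arrays. L428 is a classical Hodgkin lymphoma cell line, and L428-PAX5 is its derivative that makes PAX5 when given mifepristone. L428+M and L428-PAX5+M were both given 0.25 nM mifepristone, for 5 days, so the controls carried it too. In the groups L428+MAT and L428-PAX5+MAT mifepristone was present for 2 days before 5-aza-2′-deoxycytidine (5-aza-dC, an inhibitor of DNA methylation) was added at 3 µM over 3 days, with 640 nM trichostatin A (TSA, an inhibitor of histone deacetylases) during the final 24 hours. Below, "the drugs" means 5-aza-dC and TSA together, which no group had singly. Raji and Namalwa are Burkitt lymphoma lines, grown without any of these agents. L428-PAX5 without mifepristone was not analysed here, and its medium alone contained HEPES, so PAX5, the derived line and the medium cannot be told apart. Line and mifepristone cannot be told apart where the Burkitt lines are compared with L428. L425-PAX5 is written in the titles of the 3 L428-PAX5+MAT arrays, against L428-PAX5 in the field for the cell line, and the latter was used. Whether replicates were separate cultures is not stated, and the p-values then reflect only how far these samples varied, which may be technical variation.

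The marker genes went with the labels. Mean log2 signal of PAX5 was 7.49 in L428+M and 7.17 in L428+MAT, against 12.73 and 12.79 in the matching L428-PAX5 groups, and stood at 10.89 in Raji and 11.08 in Namalwa. In the Burkitt lines against L428+M, 6 of 6 measured B-cell markers were higher and 6 of 6 Hodgkin-cell markers lower. T and NK cell markers averaged 5.24 to 5.65 on every array, below the median of all values, 6.62. Replicate arrays correlated across genes with r of 0.9628 or more, and the 2 lowest values, 0.9628 and 0.9799, both involved L428-PAX5+MAT replicate 3. JUNB and JUND were lowest on the array numbered 3 in each of the 6 groups.

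Values are log2 signals, so a difference of 1 is a 2-fold difference. Different probe sets differ in brightness for technical reasons, and the level of one gene was therefore never set against that of another. In RNA from whole cultures, fewer expressing cells and less RNA per cell cannot be told apart. The group means of JUN spanned 4.53 on the log2 scale and those of BATF3 4.27, wider than in 98.1% and 97.6% of all genes. ATF3 spanned 3.00, FOS 2.30, BATF 2.21, JUNB 1.74, FOSB 1.16 and FOSL2 0.64. JUND, with 0.40, and FOSL1, with 0.22, varied least.

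**Figure D1:**
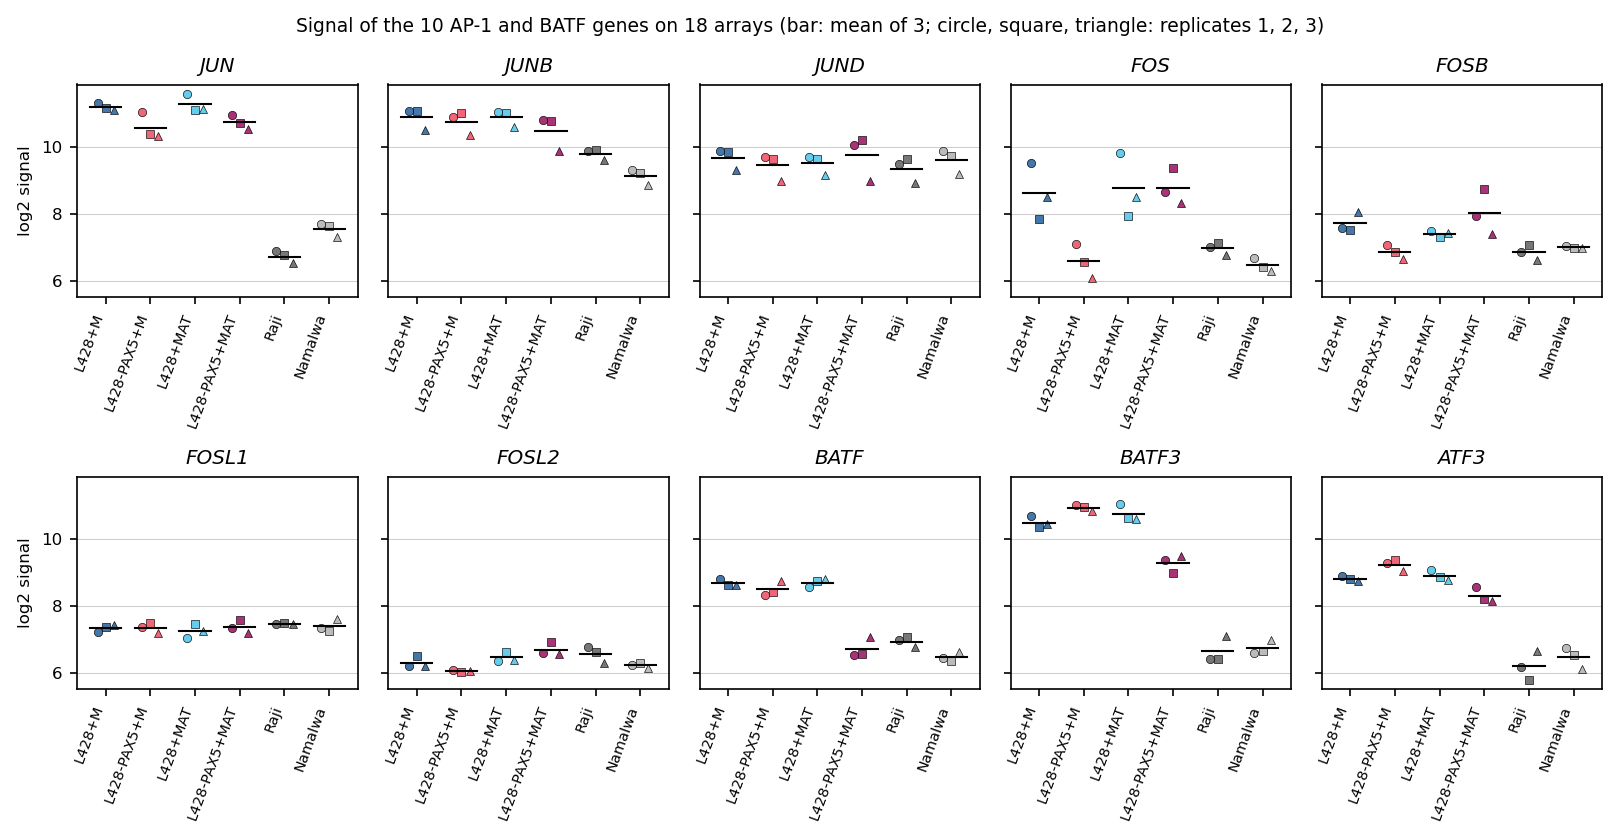
Log2 signal (vertical axis, shared by all panels) of the 10 genes on the 18 arrays, by group along the horizontal axis. Symbols are replicates 1, 2 and 3 and bars are means of 3. JUN, BATF3 and ATF3 are high in all 4 L428 groups and low in Raji and Namalwa, BATF is low in L428-PAX5+MAT as well, and FOS is low in L428-PAX5+M and both Burkitt lines.

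JUN, the transactivating partner common to most AP-1 dimers, was bright in every L428 group. Its log2 signal was 11.31, 11.16 and 11.10 with mifepristone alone in L428+M, and L428+MAT had 11.56, 11.10 and 11.11. L428-PAX5+M had 11.02, 10.37 and 10.31 and L428-PAX5+MAT had 10.95, 10.71 and 10.53. Namalwa had 7.70, 7.64 and 7.32 and Raji 6.89, 6.77 and 6.53. The order of means was L428+MAT, L428+M, L428-PAX5+MAT, L428-PAX5+M, Namalwa and Raji. The first 2 overlapped, as did the 2 L428-PAX5 groups, and all other neighbours were separate. The JUN promoter is shown because a JUN dimer site in it is well known for feedback on the gene. It covers the 150 bases before the RefSeq start (GRCh38.p14, chr1:58784048-58784197, minus strand, read 5′ to 3′ along the gene), with capitals for a match to TGACATCA, a variant of the AP-1 and CRE site, that starts 67 bases upstream of the start.
JUN: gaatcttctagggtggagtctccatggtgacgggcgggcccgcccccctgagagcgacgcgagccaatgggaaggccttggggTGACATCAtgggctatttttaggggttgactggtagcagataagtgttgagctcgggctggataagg
On either strand, TGACATCA occurred in such a window in 1.96% of the 35116 promoters listed. The match is a feature of the reference sequence and says nothing of binding in these cells.

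JUNB, which can restrain or replace JUN depending on its partner, had 11.07, 11.07 and 10.49 in L428+M, while L428-PAX5+M had 10.88, 11.00 and 10.36. L428+MAT had 11.04, 11.00 and 10.58. L428-PAX5+MAT had 10.79, 10.77 and 9.86, Raji 9.88, 9.91 and 9.59, and Namalwa 9.32, 9.23 and 8.87. The 4 L428 groups overlapped one another, and Raji overlapped L428-PAX5+MAT only through that group's replicate 3. JUND, the most constitutively expressed JUN protein, had group means from 9.34 ± 0.37 (SD, n = 3) in Raji to 9.74 ± 0.67 in L428-PAX5+MAT. All neighbouring groups overlapped for JUND.

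FOS, the prototype of the inducible FOS proteins, varied most between replicates. It had 9.52, 7.86 and 8.49 in L428+M, 9.82, 7.95 and 8.51 in L428+MAT, and 8.65, 9.36 and 8.32 in L428-PAX5+MAT. L428-PAX5+M had 7.11, 6.58 and 6.10, Raji 7.01, 7.14 and 6.79, and Namalwa 6.70, 6.43 and 6.30. The groups thus formed an upper trio with overlapping values and a lower trio with overlapping values, and no array of one trio reached into the other. FOSB, the closest relative of FOS among the members, had 7.59, 7.52 and 8.07 in L428+M, 7.50, 7.30 and 7.42 in L428+MAT, and 7.93, 8.73 and 7.41 in L428-PAX5+MAT. L428-PAX5+M had 7.09, 6.87 and 6.65, Raji 6.86, 7.08 and 6.63, and Namalwa 7.04, 6.99 and 6.98. The same 3 groups were the upper ones, all above 7.09, the highest array of the lower ones.

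The promoters of FOS and FOSB are shown because both genes changed in the same direction in each comparison in which both passed the test. Each stretch covers the 150 bases before the RefSeq start (GRCh38.p14, plus strand, chr14:75278678-75278827 for FOS and chr19:45467846-45467995 for FOSB). The run of capitals further from the start is the core of the cyclic AMP response element, TGACGT. The run nearer the start is a TATA box.
FOS: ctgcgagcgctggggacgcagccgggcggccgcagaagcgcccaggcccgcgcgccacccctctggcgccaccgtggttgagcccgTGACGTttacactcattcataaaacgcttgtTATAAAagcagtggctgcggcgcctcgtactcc
FOSB: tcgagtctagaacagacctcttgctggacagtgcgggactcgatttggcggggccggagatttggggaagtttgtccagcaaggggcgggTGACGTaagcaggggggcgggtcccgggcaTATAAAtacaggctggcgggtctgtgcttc
TGACGT starts 64 bases before the start in FOS and 60 in FOSB, and TATAAA starts 33 and 30 bases before it. Over all 35116 promoters, 5.39% of such windows held TGACGT on either strand and 4.54% held TATAAA on the forward strand. Promoters were listed for 8 of the 10 members. TGACGT also lay 66 bases before the start of FOSL2 and, on the other strand, 87 bases before that of JUND, and TATAAA lay 31 bases before that of JUNB. TGANTCA, the AP-1 site with any middle base, was in none of the members' windows and in 4.17% of all windows. BATF had no match to the 4 motifs in its window.

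FOSL1 (FRA1) and FOSL2 (FRA2) are FOS relatives without the FOS transactivation domain. FOSL1 had group means from 7.26 ± 0.22 in L428+MAT to 7.48 ± 0.02 in Raji (SD, n = 3), and all neighbouring groups overlapped. FOSL2 had 6.09, 6.04 and 6.08 in L428-PAX5+M, and L428-PAX5+MAT had 6.60, 6.94 and 6.58, which were its lowest and highest groups. L428+M had 6.23, 6.52 and 6.22, L428+MAT 6.38, 6.65 and 6.40, Raji 6.78, 6.65 and 6.31, and Namalwa 6.25, 6.30 and 6.17. FOSL2 lay near or below the median of all values throughout, where differences are compressed. The low groups of other members lay there too, such as ATF3 (mean 6.23) and BATF3 (6.66) in Raji and FOS (6.48) and BATF (6.49) in Namalwa.

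BATF, which drives effector and class-switching programs in lymphocytes, had 8.80, 8.64 and 8.64 in L428+M, while L428-PAX5+M had 8.33, 8.42 and 8.75. L428+MAT had 8.56, 8.74 and 8.80. L428-PAX5+MAT had 6.55, 6.57 and 7.07, Raji 6.99, 7.07 and 6.78, and Namalwa 6.47, 6.37 and 6.63. L428-PAX5+MAT was therefore the only L428 group whose arrays lay among those of the Burkitt lines. BATF3, best known for its need in cross-presenting dendritic cells, had 10.67, 10.35 and 10.44 in L428+M, while L428-PAX5+M had 11.00, 10.94 and 10.84. L428+MAT had 11.05, 10.62 and 10.58. L428-PAX5+MAT had 9.37, 8.99 and 9.49, Raji 6.42, 6.44 and 7.12, and Namalwa 6.62, 6.66 and 6.98. BATF3 in L428-PAX5+MAT was separate from every other group, below the other L428 groups and above both Burkitt lines.

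ATF3, a stress-responsive factor that represses many of its targets, had 8.89, 8.82 and 8.75 in L428+M, while L428-PAX5+M had 9.27, 9.37 and 9.05. L428+MAT had 9.07, 8.87 and 8.79. L428-PAX5+MAT had 8.57, 8.20 and 8.14, Raji 6.19, 5.82 and 6.68, and Namalwa 6.75, 6.55 and 6.14. ATF3 had the same 3 tiers as BATF3. Its promoter is shown for the TGACATCA that it shares with JUN. Of 2 listed ATF3 starts, the one given here (GRCh38.p14, chr1:212565257-212565406, plus strand) has the match, in capitals, 123 bases upstream, and the other has none.
ATF3: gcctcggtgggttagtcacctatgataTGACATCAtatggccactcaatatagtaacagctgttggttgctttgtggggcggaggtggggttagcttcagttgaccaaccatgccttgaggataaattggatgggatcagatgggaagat
CpG dinucleotides numbered 4 and 1 in the 300 bases around the ATF3 starts (250 before and 50 after) and 7 for BATF, below the median of 14 over all promoters. JUN had 16, FOSB 23, JUNB and FOSL2 29 each, FOS 30 and JUND 49.

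In Burkitt lines against L428+M, 7 of the 10 members were lower, 0 were higher and 3 did not pass (limma, adjusted p below 0.05). Over all 18417 genes, 16.7% were lower and 18.7% higher. The median change of the members was -1.65, against 0.03 for all genes. JUN was 16.6-fold lower (log2 change -4.05 ± 0.16, SE, n = 6 against 3, limma adjusted p = 2.25e-13) and BATF3 13.7-fold lower (-3.78 ± 0.17, adjusted p = 6.82e-13). ATF3 was 5.52-fold lower, BATF 3.92-fold, FOS 3.72-fold, JUNB 2.66-fold and FOSB 1.74-fold, with adjusted p from 4.70e-10 for BATF to 0.00451 for FOSB. The arrays of the 2 sides did not overlap for any of these 7. Over all genes, 13.6% were lower without overlap. JUND (-0.21 ± 0.26), FOSL1 (0.09 ± 0.13) and FOSL2 (0.09 ± 0.13) did not pass. The n counts arrays of Raji, Namalwa and L428 only. The p-values rest on the spread between arrays and do not measure how Burkitt or Hodgkin lines vary.

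Raji and Namalwa differed from each other in JUN, which was lower in Raji (-0.82 ± 0.19, n = 3 per group, limma adjusted p = 0.00339), and in BATF, which was higher in Raji (0.46 ± 0.16, adjusted p = 0.0471). Of all genes, 7.74% were higher and 11.5% lower. JUNB was higher in Raji on all 3 arrays without passing (0.65 ± 0.24, adjusted p = 0.0700), and 18% of all genes were higher without overlap. With the replicate number as a block, JUNB (adjusted p = 0.000423) and FOSL2 (0.34, adjusted p = 0.0457) passed too, 4 members in place of 2. The call for BATF was lost without Namalwa replicate 1 (0.44, adjusted p = 0.121) or 2 (0.40, adjusted p = 0.169), and without Raji replicate 1 (0.44, adjusted p = 0.126) or 2 (0.39, adjusted p = 0.170), each of which left 1 member called.

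Under mifepristone alone, the line with PAX5 induced had lower FOS, FOSB and JUN signals than L428. In L428-PAX5+M against L428+M, 3 of 10 members were lower and 0 higher (limma). The share of all genes called lower was 6.55%, and 9.72% were higher. FOS was 4.07-fold lower (-2.02 ± 0.42, n = 3 per group, adjusted p = 0.00192), with differences by replicate number of -2.41, -1.28 and -2.38. FOSB was 1.81-fold lower (-0.855 ± 0.239, adjusted p = 0.0180) and JUN 1.54-fold lower (-0.62 ± 0.19, adjusted p = 0.0283). BATF3 (0.44 ± 0.19, adjusted p = 0.141) and ATF3 (0.41 ± 0.20, adjusted p = 0.194) lay above L428+M on all 3 arrays without passing. Non-overlapping higher values were found for 15.3% of all genes.

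The calls for FOSB and JUN in that comparison did not hold in every setting. FOSB was no longer called without L428+M replicate 3 (-0.69, adjusted p = 0.0907), L428-PAX5+M replicate 2 (-0.86, adjusted p = 0.0516) or L428-PAX5+M replicate 3 (-0.74, adjusted p = 0.0779). JUN was no longer called without L428+M replicate 1 (-0.57, adjusted p = 0.0953) or 2 (-0.64, adjusted p = 0.0669), or without L428-PAX5+M replicate 2 (-0.53, adjusted p = 0.129) or 3 (-0.50, adjusted p = 0.133). Nor was it called in the fit to these groups alone (-0.62, adjusted p = 0.0690). Without either of the last 2 arrays FOS alone was called, 1 member in place of 3, and the same was found when all 6 arrays numbered 3 were left out, a setting chosen after seeing the data. FOS was called in every setting run for this comparison. Myeloid markers had 1 of 5 higher, CSF1R (2.69 ± 0.18), with mean signals from 5.49 to 5.56 in L428+M and from 6.01 to 6.07 in L428-PAX5+M. Of 6 Hodgkin-cell markers, ID2 (-0.92), MSC (-0.86) and TNFRSF8 (-0.67) were lower and CCL17 (0.72) higher, with mean signals from 10.4 to 11.04 in L428+M and from 10.19 to 10.58 in L428-PAX5+M. Leaving out replicate 1 or 2 of L428+M gave 0 lower, and leaving out replicate 2 or 3 of L428-PAX5+M gave 1. The part of these markers in the results was not tested.

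In L428 without the PAX5 construct, the drugs changed 0 of 10 members (limma), and 0 reached an unadjusted p below 0.05, the lowest being 0.184. Of all genes, 4.84% were called. With the replicate block 0 members were called as well. The intervals still allow changes of some size. For BATF the 95% interval of the log2 change ran from -0.32 to 0.33, for BATF3 from -0.14 to 0.66, for ATF3 from -0.33 to 0.50, for FOSB from -0.82 to 0.18 and for FOS from -0.74 to 1.01.

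In the PAX5 line, FOS, FOSB and FOSL2 were higher with the drugs and BATF, BATF3 and ATF3 were lower. L428-PAX5+MAT against L428-PAX5+M had 3 members higher, 3 lower and 4 not passing (limma), where 14.2% of all genes were higher and 19.4% lower. It shares L428-PAX5+M with the comparison against L428+M above, so low values in that group enter both, with opposite sign. FOS was 4.53-fold higher (2.18 ± 0.42, n = 3 per group, adjusted p = 0.000495), FOSB 2.22-fold (1.15 ± 0.24, adjusted p = 0.00100) and FOSL2 1.56-fold (0.64 ± 0.15, adjusted p = 0.00208). BATF was 3.41-fold lower (-1.77 ± 0.16, adjusted p = 1.59e-07), BATF3 3.13-fold (-1.65 ± 0.19, adjusted p = 3.37e-06) and ATF3 1.90-fold (-0.93 ± 0.20, adjusted p = 0.00119). By replicate number, BATF differed by -1.78, -1.85 and -1.68, and FOS by 1.54, 2.78 and 2.21. The arrays of the 2 groups did not overlap for any of the 6, where 17.7% of all genes were higher and 23% lower without overlap. All 6 calls held in every setting run, each array left out included. JUN (0.16 ± 0.19), JUNB (-0.27 ± 0.24), JUND (0.31 ± 0.30) and FOSL1 (0.02 ± 0.15) did not pass. JUND was called higher with array weights (0.48, adjusted p = 0.0154) and once all arrays numbered 3 were left out (0.47, adjusted p = 0.00817). JUN was called higher with array weights (0.32, adjusted p = 0.0477).

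**Figure D2:**
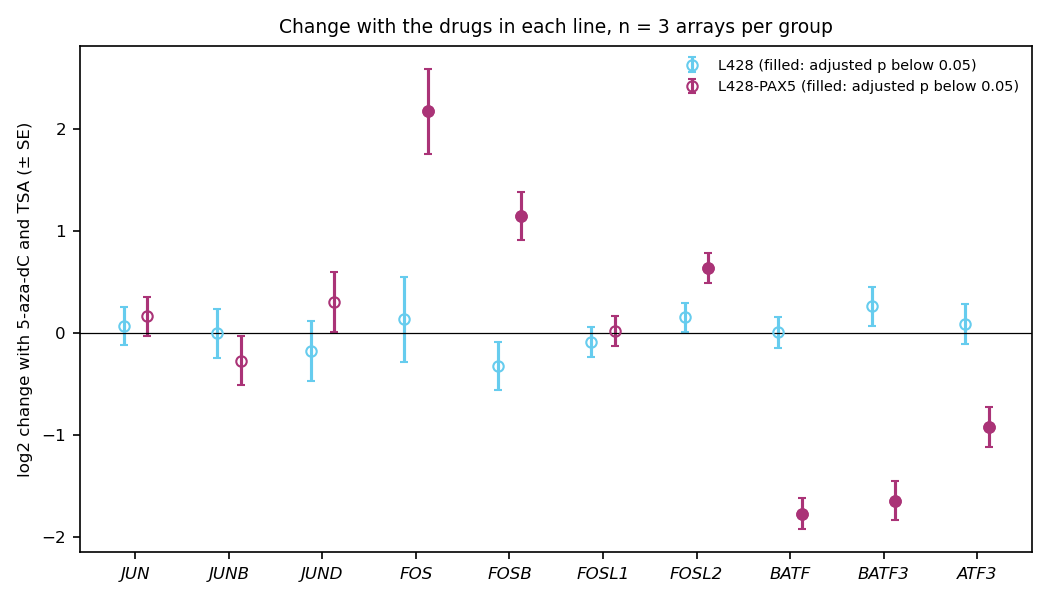
Log2 change with 5-aza-dC and TSA (vertical axis) of each gene (horizontal axis), in L428 and in L428-PAX5, with SE bars, 3 arrays per group. Filled points passed limma at an adjusted p below 0.05, which none did in L428 and 6 did in L428-PAX5: FOS, FOSB and FOSL2 above zero, BATF, BATF3 and ATF3 below it.

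Whether the drug effect differed between the lines was tested as an interaction, which uses the L428-PAX5+M arrays again. It passed for 5 of 10 members (limma), 2 with a higher and 3 with a lower drug effect in the PAX5 line, against 5.64% and 10.6% of all genes. The difference between the drug effects was -1.91 ± 0.27 for BATF3 (adjusted p = 0.000167), -1.78 ± 0.22 for BATF (adjusted p = 5.18e-05), -1.01 ± 0.28 for ATF3 (adjusted p = 0.0179), 1.47 ± 0.34 for FOSB (adjusted p = 0.00620) and 2.04 ± 0.59 for FOS (adjusted p = 0.0237). FOSL2 did not pass (0.49 ± 0.21, adjusted p = 0.123) and passed with the replicate block (adjusted p = 0.0461). FOS was not called in the fit to these 4 groups alone (adjusted p = 0.0622). It was also not called without L428+M replicate 1 (1.59, adjusted p = 0.0614), L428-PAX5+M replicate 3 (1.79, adjusted p = 0.0596), L428+MAT replicate 2 (1.64, adjusted p = 0.0686) or 3 (1.91, adjusted p = 0.0525), or L428-PAX5+MAT replicate 2 (1.75, adjusted p = 0.0755). With all arrays numbered 3 left out, FOS was not called (1.96, adjusted p = 0.0957) and JUND was (0.67, adjusted p = 0.0155). JUND was also called with array weights (0.66, adjusted p = 0.0487).

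With the drugs in both lines, the PAX5 line was lower in 4 members and higher in 0 (limma), where 17.7% of all genes were lower and 14.3% higher. BATF was 3.91-fold lower than in L428+MAT (-1.97 ± 0.16, n = 3 per group, adjusted p = 3.45e-08) and BATF3 2.77-fold (-1.47 ± 0.19, adjusted p = 9.45e-06). ATF3 was 1.52-fold lower (-0.60 ± 0.20, adjusted p = 0.0235) and JUN 1.44-fold lower (-0.53 ± 0.19, adjusted p = 0.0384). FOS differed by 0.02 ± 0.42, with a 95% interval from -0.86 to 0.89, and its differences by replicate number were -1.16, 1.40 and -0.19. FOSB (0.62 ± 0.24, adjusted p = 0.0570) and JUNB (-0.40 ± 0.24, adjusted p = 0.248) did not pass, and both did with the replicate block (adjusted p = 0.0377 and 0.0140). This comparison shares L428-PAX5+MAT with the drug comparison above, so the 2 sets of values are not independent.

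The calls for ATF3 and JUN in that comparison were lost in several settings. ATF3 was not called without L428+MAT replicate 1 (-0.52, adjusted p = 0.0936) or L428-PAX5+MAT replicate 2 (-0.55, adjusted p = 0.0785) or 3 (-0.52, adjusted p = 0.0790). JUN was not called without L428+MAT replicate 1 (-0.38, adjusted p = 0.190) or L428-PAX5+MAT replicate 2 (-0.52, adjusted p = 0.0873) or 3 (-0.43, adjusted p = 0.131), nor after quantile normalization (-0.32, adjusted p = 0.169). Its call was lost too with array weights (-0.21, adjusted p = 0.0793), in the fit to these groups alone (adjusted p = 0.0722) and with all arrays numbered 3 left out (-0.50, adjusted p = 0.0766). Without L428+MAT replicate 1 or L428-PAX5+MAT replicate 2 the members called were 2 in place of 4, BATF and BATF3. FOSB was called higher without L428-PAX5+MAT replicate 3 (0.93, adjusted p = 0.00252), and stood at 0.26 without replicate 2 of that group (adjusted p = 0.378). JUND was called higher with array weights (0.43, adjusted p = 0.00466) and with all arrays numbered 3 left out (0.47, adjusted p = 0.00854).

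Set against L428-PAX5+MAT in place of L428+M, the Burkitt lines were lower in 6 members and higher in 0 (limma), with 23.1% of all genes lower and 26.5% higher. JUN remained 12.0-fold lower in the Burkitt lines (-3.59 ± 0.16, n = 6 against 3, adjusted p = 1.53e-12), BATF3 5.96-fold, FOS 4.14-fold, ATF3 3.86-fold, FOSB 2.13-fold and JUNB 2.01-fold. BATF differed by -0.01 ± 0.13 (adjusted p = 0.963), with a 95% interval from -0.29 to 0.27. Both sides of that BATF comparison lay near the median of all values, where differences are compressed. FOSL2 (-0.30 ± 0.13, adjusted p = 0.0574), JUND (-0.28 ± 0.26) and FOSL1 (0.07 ± 0.13) did not pass. JUND was called lower when all arrays numbered 3 were left out (-0.46, adjusted p = 0.00249). It was also called with the replicate block (adjusted p = 0.0434), array weights (-0.44, adjusted p = 0.000987) or without L428-PAX5+MAT replicate 3 (-0.67, adjusted p = 0.0282).

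Other immediate-early genes, chosen for their known response to the signals that induce FOS, were counted in the same comparisons. This list and those below were chosen with earlier results of these data known. Counts here and in the lists below are to be read beside the shares of all genes. The Burkitt lines against L428+M had 18.7% higher and 16.7% lower. L428-PAX5+M against L428+M had 9.72% higher and 6.55% lower. L428-PAX5+MAT against L428-PAX5+M had 14.2% higher and 19.4% lower. The interaction had 5.64% higher and 10.6% lower, and the drugs in L428 changed 4.84%. In L428-PAX5+M against L428+M, 6 of 17 measured were lower and 0 higher (limma, 8 at an unadjusted p below 0.05), with a median change of -0.22 against -0.03 for all genes. EGR1, a zinc finger factor induced with FOS, fell by 3.06 ± 0.40 on the log2 scale (adjusted p = 2.16e-05). ZFP36, which destabilises cytokine mRNA, fell by 1.58 ± 0.38, and IER2 fell by 1.49 ± 0.30. With the replicate block, and also with all arrays numbered 3 left out, 2 were higher in place of 0.

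In L428-PAX5+MAT against L428-PAX5+M, 11 of these 17 genes were higher and 0 lower (limma, 14 at an unadjusted p below 0.05), and the median change was 0.72 against -0.04 for all genes. EGR1 rose by 2.83 ± 0.40, IER3, a survival-related early gene, by 1.83 ± 0.34 and NR4A3, an orphan nuclear receptor, by 1.80 ± 0.18. This comparison shares L428-PAX5+M with the one before, so the counts of the 2 are not independent. Relative to L428+M, EGR1 stood at -3.06 in L428-PAX5+M and -0.24 in L428-PAX5+MAT, and IER2 at -1.49 and 0.07. IER3 (-0.59 and 1.23) and NR4A3 (0.06 and 1.87) ended above L428+M. The replicate block gave 1 lower in place of 0, as did leaving out L428-PAX5+M replicate 3 or L428-PAX5+MAT replicate 1. Fibroblast and epithelial markers moved with this comparison, with 4 of 7 higher and their mean signal from 6.50 to 6.63 in L428-PAX5+M and from 6.99 to 7.12 in L428-PAX5+MAT. Those 4 were KRT8 (1.65), KRT18 (1.05), COL1A1 (0.71) and EPCAM (0.59), and COL1A2 (-0.05), COL3A1 (-0.20) and PDGFRB (-0.21) did not pass. KRT8 was also higher with the drugs in L428 (1.56 ± 0.22). Myeloid markers had 2 of 5 higher (CSF1R and CD14), with mean signals from 6.01 to 6.07 and from 6.12 to 6.53, and 1 without L428-PAX5+MAT replicate 2. Of 6 Hodgkin-cell markers, CCL17 (-1.78), MSC (-1.45) and TNFRSF8 (-1.23) were lower and ID2 (0.93) higher, with a median change of -0.71. Their mean signals ran from 10.19 to 10.58 in L428-PAX5+M and from 9.67 to 9.95 in L428-PAX5+MAT. T and NK cell markers had 0 of 7 called (limma, 0 at an unadjusted p below 0.05). The part of these markers in the results was not tested.

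In L428, the drugs changed 0 of the 17 immediate-early genes (limma, 2 at an unadjusted p below 0.05, 1 higher with the replicate block, 2 higher with all arrays numbered 3 left out). The drug effect differed between the lines for 4 of 17, all higher in the PAX5 line, and EGR1 (2.51 ± 0.56), IER2 (1.39 ± 0.42) and NR4A3 (1.24 ± 0.25) led them. The count was 9 with the replicate block and 8 without L428-PAX5+MAT replicate 3. In the Burkitt lines against L428+M, 6 of 17 were lower, led by IER3 (-2.21 ± 0.30), PPP1R15A (-2.16 ± 0.15) and NR4A2 (-2.13 ± 0.14), and 2 were higher, NR4A1 (1.41 ± 0.21) and NR4A3 (0.76 ± 0.15).

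**Figure D3:**
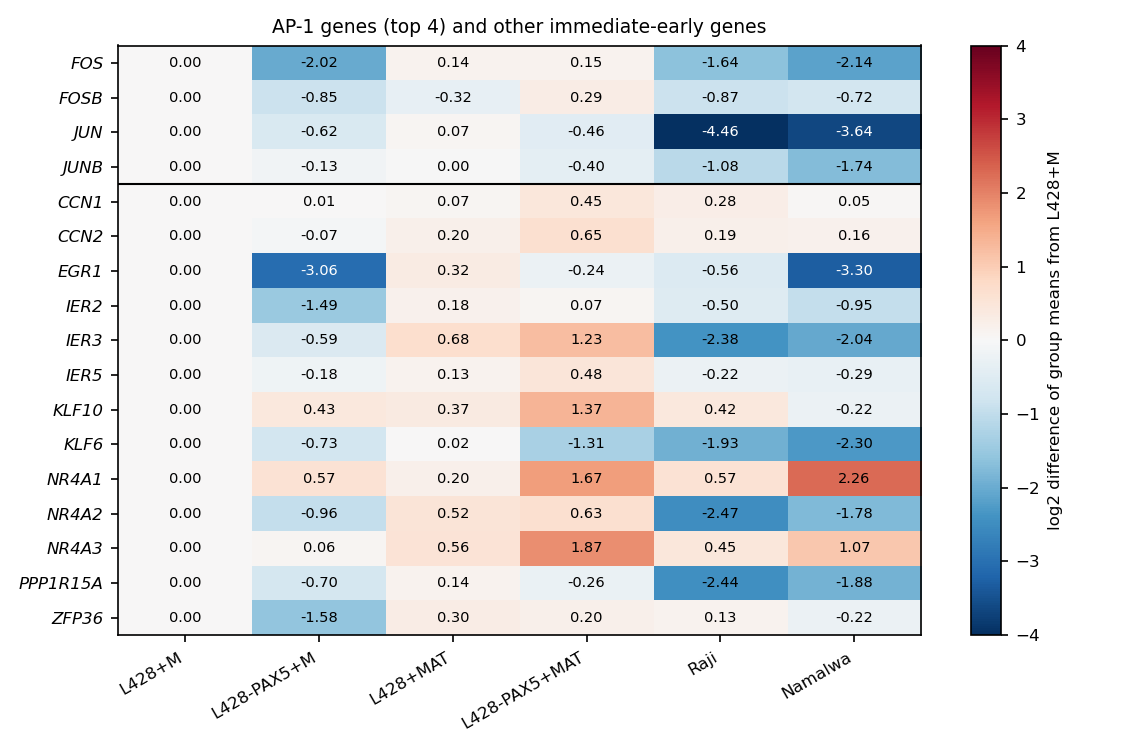
Log2 difference of each group mean (columns, means of 3 arrays) from that of L428+M, for 4 AP-1 genes above the line and the 13 other immediate-early genes called in L428-PAX5+M against L428+M or L428-PAX5+MAT against L428-PAX5+M below it. Colours end at 4 in either direction, and the numbers give the values: EGR1 stands at -3.06 in L428-PAX5+M and -0.24 in L428-PAX5+MAT, and FOS at -2.02 and 0.15.

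Upstream of AP-1, MAP kinases phosphorylate JUN and the factors that switch on FOS, and dual-specificity phosphatases (DUSP) turn the kinases off. In L428-PAX5+M against L428+M, 4 of 10 phosphatases were lower and 0 higher (limma, 7 at an unadjusted p below 0.05). DUSP6, which acts on ERK, changed by -1.21 ± 0.22 on the log2 scale, DUSP1 by -1.19 ± 0.20 and DUSP5 by -0.81 ± 0.26. The count lower was 2 without L428+M replicate 2 or L428-PAX5+M replicate 1, and 1 was higher without L428-PAX5+M replicate 3. The drugs in the PAX5 line raised 2, DUSP10 (1.27 ± 0.18) and DUSP5 (1.23 ± 0.26), and lowered 2, DUSP6 (-1.64 ± 0.22) and DUSP4 (-0.51 ± 0.17), of which 1 was lower without L428-PAX5+M replicate 1 or L428-PAX5+MAT replicate 1 or 2. DUSP10 was also higher with the drugs in L428 (0.72 ± 0.18). In the Burkitt lines against L428+M, 4 were lower, among them DUSP6 (-5.69 ± 0.19), DUSP1 (-3.20 ± 0.17) and DUSP16 (-1.52 ± 0.14), and 2 were higher, DUSP7 and DUSP10. The shares of all genes there were 16.7% lower and 18.7% higher.

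Of 18 MAP kinase cascade genes, 3 were higher and 8 lower in the Burkitt lines against L428+M (median change -0.26 against 0.03). MAP3K1, a kinase upstream of JNK, was higher (1.59 ± 0.15), and MAP3K8, which activates ERK, was lower (-2.10 ± 0.18). Without the drugs, L428-PAX5 against L428 had 3 higher, MAPK13 (1.33 ± 0.19), MAPK12 (0.87 ± 0.20) and MAP3K5 (0.82 ± 0.23), and 1 was lower, the ERK-activating kinase MAP2K1 (-0.93 ± 0.23), with 9 at an unadjusted p below 0.05 (limma, median 0.04 against -0.03). The count lower was 5 with the replicate block, 4 with array weights, 3 with medians subtracted, quantile normalization, dim genes left out or all arrays numbered 3 left out, and 2 without replicate 3 of either group, with only these groups, or with trend and robust eBayes. The drug comparison in the PAX5 line shares L428-PAX5+M with it. In L428-PAX5+MAT against L428-PAX5+M, 2 were higher and 7 lower (median -0.26 against -0.04). The p38 kinases MAPK13 (-1.80 ± 0.19) and MAPK12 (-1.27 ± 0.20) and the kinase MAP2K5 (-1.20 ± 0.18) fell most, and MAP2K3 rose by 1.18 ± 0.24. Without L428-PAX5+M replicate 2, 1 was higher in place of 2. In L428 the drugs changed 0 of 18 (limma, 4 at an unadjusted p below 0.05, and 1 higher and 3 lower with the replicate block). Of serum response factor, which binds the FOS promoter, and its cofactors, 6 were measured. In L428-PAX5+MAT against L428-PAX5+M, 1 was higher, MYOCD (0.67 ± 0.18), and 1 lower, ELK4 (-0.45 ± 0.12). In L428-PAX5+M against L428+M, 1 was lower, ELK3 (-1.16 ± 0.18), and 1 higher, ELK4 (0.40 ± 0.12). The Burkitt lines against L428+M had ELK3 lower (-1.60 ± 0.16) and SRF (0.49 ± 0.15) and ELK4 (0.30 ± 0.11) higher.

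Further basic leucine zipper proteins can pair with the members. Of 16 measured, 4 were higher and 3 lower in the Burkitt lines against L428+M, where 18.7% and 16.7% of all genes were. The median change of the list was -0.13 against 0.03 for all genes. CREB5 stood 2.61 ± 0.13 higher there and ATF2, a JUN partner, changed by -0.86 ± 0.10. In L428-PAX5+M against L428+M, 3 were higher and 1 lower, with CREM, a cyclic AMP-responsive factor, at 1.34 ± 0.19 and ATF2 at -0.54 ± 0.11. In L428-PAX5+MAT against L428-PAX5+M, 1 was higher, CREB5 (1.66 ± 0.15), and 7 were lower, led by CREM (-1.59 ± 0.19), NFE2L3 (-0.86 ± 0.18) and NFE2L1 (-0.79 ± 0.16). The median change there was -0.30 against -0.04 for all genes, and the replicate block gave 2 higher. In L428 the drugs raised 2 of 16, CREB5 (1.22 ± 0.15) and BACH2 (0.65 ± 0.16), and lowered 0. The interaction did not pass for CREB5 (0.44 ± 0.21, limma adjusted p = 0.170). It passed as lower in the PAX5 line for 5 of 16, led by CREM (-1.97 ± 0.275).

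Genes reported elsewhere as AP-1 targets were counted next, as a list that says nothing of binding here. In the Burkitt lines against L428+M, 11 of 22 were lower and 1 higher (median -0.29 against 0.03). The cell cycle gene CCND2 (-6.47 ± 0.15), the galectin LGALS1 (-4.52 ± 0.13) and the protease inhibitor TIMP1 (-4.10 ± 0.20) changed most. IL2RA was the higher one (1.37 ± 0.14), as a mean over lines that differed, with 6.93 in L428+M, 6.45 in Raji and 10.15 in Namalwa. Without L428+M replicate 2, 2 were higher. In L428-PAX5+M against L428+M, 7 were lower, led by CD44 (-2.23 ± 0.13), TIMP1 (-1.996 ± 0.229) and LGALS1 (-1.75 ± 0.15), and 3 were higher, FN1 (2.06 ± 0.22), CD274 (1.58 ± 0.23) and CCND1 (0.60 ± 0.16).

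In L428-PAX5+MAT against L428-PAX5+M, where FOS and FOSB were higher, 4 of these 22 genes were higher and 7 lower, with a median change of 0.00. PLAU, the urokinase protease (-1.52 ± 0.29), TNFRSF8 (-1.23 ± 0.21) and IL6 (-0.98 ± 0.23) were lower. FN1 (0.997 ± 0.221), LGALS1 (0.88 ± 0.15) and PLAUR, the urokinase receptor (0.78 ± 0.18), were higher. TNFRSF8 had group means of 9.88 in L428+M, 9.21 in L428-PAX5+M, 10.02 in L428+MAT, 7.98 in L428-PAX5+MAT, 7.69 in Raji and 7.53 in Namalwa. In L428 the drugs raised 2 of 22, FN1 (1.28 ± 0.22) and IL2RA (0.95 ± 0.16), and 5 with the replicate block.

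The IRF partners of BATF and genes reported as its targets made up the last list, of which 9 were measured. In the Burkitt lines against L428+M, IRF8 (2.35 ± 0.24), the myeloid and B-cell factor SPI1 (1.59 ± 0.17) and MYC (0.92 ± 0.13) led 4 higher genes, and IRF4 (-3.17 ± 0.14) and PRDM1 (-2.26 ± 0.14) were lower. The shares of all genes there were 18.7% higher and 16.7% lower. IRF4 also separated the Burkitt lines, at -4.05 ± 0.16 in Raji against Namalwa. In L428-PAX5+MAT against L428-PAX5+M, where BATF and BATF3 were lower, IRF8 was higher (1.15 ± 0.28) and MYC (-0.86 ± 0.15) and IRF4 (-0.67 ± 0.16) were lower. IRF8 was also higher with the drugs in L428 (0.98 ± 0.28, limma adjusted p = 0.0481), where BATF and BATF3 did not pass. The interaction did not pass for IRF8 (0.165 ± 0.39), MYC (-0.60 ± 0.21) or IRF4 (-0.63 ± 0.225).

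**Figure D4:**
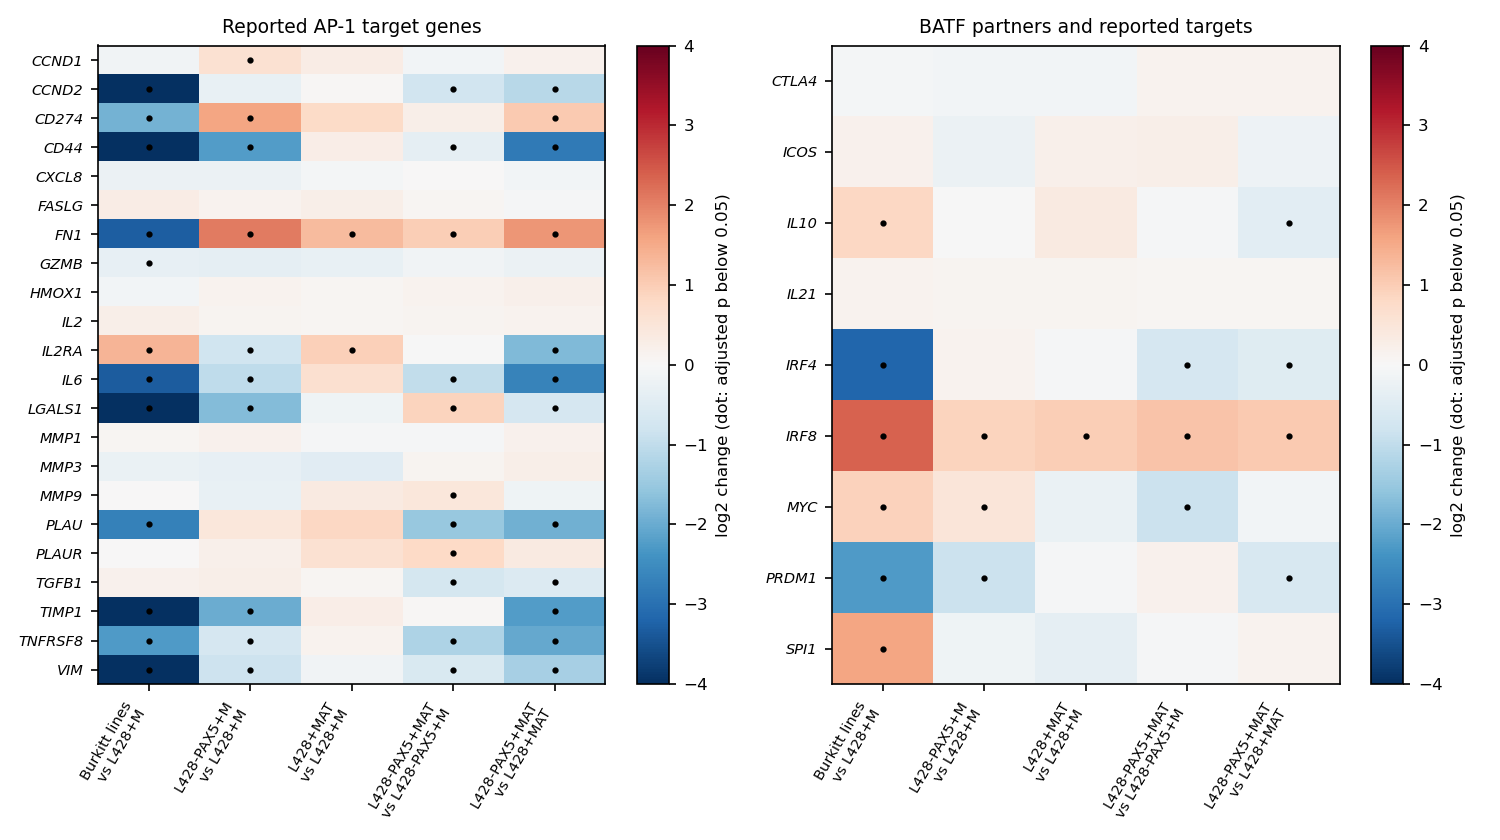
Log2 change (colour, ending at 4 in either direction) of reported AP-1 target genes, left, and of BATF partners and reported targets, right, in 5 comparisons (columns). Dots mark limma adjusted p below 0.05. CCND2, LGALS1, TIMP1 and CD44 lie beyond the colour range in the Burkitt lines, FN1 is higher in all 4 comparisons among L428 groups, and IRF8 carries a dot in every column.

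Among the members whose group means spanned at least 2 on the log2 scale, the genes with the most similar pattern were found by the root mean square difference of their centred means over the 6 groups. For JUN these were SIGLECL1 (0.19), SLC13A4 (0.25) and LRIG3 (0.28), where the median over all genes was 1.86. For BATF3 they were HAAO (0.12), PDCD1LG2 (0.17) and MYO3B (0.17), against a median of 1.84. For ATF3 they were FHAD1 (0.12), STAT3 (0.14) and FRMPD2 (0.18), against 1.24. For BATF they were ASB2 (0.16), CD80 (0.17) and ZNF423 (0.19), against 1.01. FOS had the least close neighbours, SLC2A3 (0.30), RUNDC3B (0.38) and ZC2HC1A (0.40), against 1.08.

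The members include 2 pairs of near neighbours in the genome (GRCh38.p14 gene order). ATF3 and BATF3 lie on chromosome 1 with 1 protein-coding gene, GARIN4, between them. Both fell with the drugs in the PAX5 line, while GARIN4 did not pass (-0.15 ± 0.16). Of the genes flanking the pair, NENF fell by 1.03 ± 0.21 (adjusted p = 0.000774), NSL1 did not pass (-0.55 ± 0.26), nor did PACC1 (0.06 ± 0.22). FOS and BATF lie on chromosome 14 with 1 protein-coding gene between them, JDP2, a repressor of AP-1. FOS rose and BATF fell in the same comparison, and JDP2 changed by -0.32 ± 0.12 (adjusted p = 0.0466). Of the genes flanking that pair, TMED10 fell by 0.50 ± 0.14 (adjusted p = 0.00915), whereas NEK9 (0.10 ± 0.12), FLVCR2 (-0.23 ± 0.18) and ERG28 (-0.19 ± 0.26) did not pass.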

How the data were processed

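RNA from 18 samples was hybridised to Affymetrix whole-transcript arrays. The deposited values are log2 signals per probe set. The authors used RMA and Partek, per the submitters' processing notes, with versions, order and array build not given in the sources used here. Values of 33297 probe sets run from 2.24 to 14.64, with array medians from 6.52 to 6.70. No detection calls were used, and background correction compresses dim signals. In the platform annotation 19460 probe sets carry 1 symbol, 1754 several and 12083 are unlisted, and 19429 matched RefSeq gene identifiers (GRCh38.p14). The brightest probe set on average stood for each of 18417 genes.

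Changes were fitted with limma 3.58.1 (lmFit, eBayes) in R 4.3.3, estimating the 6 group means together on 18 arrays (residual degrees of freedom 12, prior 6.1). Two-sided tests were Benjamini-Hochberg adjusted over 18417 genes and passed below 0.05. The fit was tested on simulated data. Figures used Python 3.11.15, pandas 2.3.3, numpy 2.4.6 and matplotlib 3.10.9. The number of arrays limits precision.

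Replicate numbers come from the labels. Same-numbered arrays deviated together among the L428 groups (r from 0.273 to 0.655) and between Raji and Namalwa (0.325 to 0.541). Between Burkitt and L428 arrays this was not so for every pair. The main fit had no replicate term, so its errors, p-values and counts leave the pairing out. Values with the replicate block are given where they change a member's call or move a count by over 1.5 times.

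Alternatives were the replicate block, median subtraction, quantile normalization, the mean of probe sets, no dim genes (highest group mean at or below 6.621), only the groups compared, trend and robust eBayes, array weights and each array left out, with all arrays numbered 3 left out added after seeing the data. Named genes are the members, PAX5, TNFRSF8, up to 3 called genes with the largest changes per list, direction and comparison, and the 3 genes most alike to each member spanning at least 2. NSL1, NENF, PACC1, GARIN4, JDP2, TMED10, NEK9, FLVCR2 and ERG28 were named as neighbours, and COL1A2, COL3A1, EPCAM and PDGFRB after their values were seen. The members and lists were chosen with earlier results of these data known.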

Additional observations from a re-analysis of the deposited data

Results flagged for a closer look

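For 5 members the effect of the drugs differed between L428-PAX5 and L428 by the interaction test (limma, adjusted over all genes, 3 arrays per group). The effect in the PAX5 line minus that in L428 was 2.04 for FOS, 1.47 for FOSB, -1.78 for BATF, -1.91 for BATF3 and -1.01 for ATF3, on the log2 scale. BATF, BATF3 and ATF3 were lower with the drugs in 3 of 3 numbered pairs of the PAX5 line, and FOS and FOSB were higher in 3 of 3. In L428 the pairs of BATF differed by -0.24, 0.10 and 0.16, those of FOS by 0.30, 0.10 and 0.02, and those of FOSB by -0.10, -0.22 and -0.65. The test for FOS ended above the threshold when any of 5 single arrays was left out. The interaction uses the L428-PAX5+M arrays that also gave lower FOS and FOSB against L428+M, so these results are not independent. With the drugs in both lines, FOS differed by 0.02 and FOSB by 0.62, neither passing in the main fit. Medium and line differ along with PAX5 and cannot be told apart from it.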

How the results depend on the processing

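Over 8 comparisons, 80 member results were examined, and 59 kept their side of the threshold in every setting. Of 33 calls, 27 held throughout and 6 were lost in at least 1 setting, and 15 of 47 results without a call gained one. BATF in the Burkitt lines against L428-PAX5+MAT reversed sign with array weights (0.16). Members called in L428-PAX5+M against L428+M were 3, with 1 to 3 when single arrays were left out and 1 without the arrays numbered 3. In L428-PAX5+MAT against L428+MAT they were 4, with 2 to 4 when single arrays were left out. In Raji against Namalwa they were 2, with 1 to 3 when single arrays were left out, 4 with the replicate block, medians subtracted, only these groups or the arrays numbered 3 left out, 1 with trend and robust eBayes and 5 with array weights. All genes called with the drugs in L428 were 892, 1592 with the replicate block, 593 with only these groups and 2551 with array weights. The interaction called 2990 genes, 4730 with the block and 5965 with weights. Array weights gave 11176 in place of 5898 for L428-PAX5+MAT against L428+MAT, 9532 in place of 6204 against L428-PAX5+M and 5747 in place of 3545 for Raji against Namalwa. They gave L428-PAX5+MAT replicate 1 a weight of 15.2. The block changed no other member call among the L428 groups or between Raji and Namalwa. For Burkitt against L428 arrays, which share only a number, it called 7 members in place of 7 against L428+M and 8 in place of 6 against L428-PAX5+MAT. The cause was not tested.

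Median subtraction moved the median change of all genes in Raji against Namalwa from 0.04 to 0.14 and the share of calls that were higher from 40.2% to 53.4%. Quantile normalization moved that share from 34.7% to 48.7% for the interaction. Using the mean of probe sets could not move the members, each with 1. Members near the median of all values have compressed changes, such as FOSL2 in every group and ATF3, BATF, BATF3 and FOS in the Burkitt lines. The 3 arrays per group limit what can be called.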

Other observations

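Partners, relatives and reported targets of AP-1 were also counted between the Burkitt lines Raji and Namalwa (limma, 3 arrays per group, log2 change ± SE, Raji relative to Namalwa). The shares of all genes were 7.74% higher and 11.5% lower in Raji, and counts near those shares are not particular to these lists. Among 16 basic leucine zipper relatives, 5 were lower in Raji and 0 higher, with 7 at an unadjusted p below 0.05. BACH2, a repressor that keeps B cells from becoming plasma cells, led them at -4.15 ± 0.16, followed by JDP2 (-1.34 ± 0.12) and ATF7 (-0.83 ± 0.14). Among 17 other immediate-early genes, 2 were higher, EGR1 (2.74 ± 0.40) and KLF10 (0.65 ± 0.20), and 4 lower, led by NR4A1 (-1.69 ± 0.24), NR4A2 (-0.69 ± 0.17) and NR4A3 (-0.62 ± 0.18). Those counts were 1 higher without Namalwa replicate 3 or Raji replicate 1 or 2, and 2 lower without Namalwa replicate 1 or Raji replicate 2. Of 22 reported AP-1 targets, VIM (5.01 ± 0.15) and CD274 (1.08 ± 0.23) were higher in Raji and IL2RA (-3.70 ± 0.16) lower. Among the BATF partners and reported targets, IL10 was higher in Raji (2.38 ± 0.15), and PRDM1 was lower (-1.08 ± 0.16) along with IRF4.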
